A study of Mus musculus with 10 samples.

Results

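The miR-183, miR-96 and miR-182 cluster was followed as its 3 guide arms, miR-183-5p, miR-96-5p and miR-182-5p, taken by name from both deposited tables. All 3 were listed in both tables, among 679 miRNAs for brown adipose tissue (BAT), 436 for plasma and 721 in all. The RNA came from small extracellular vesicles, which are membrane-bound particles released by cells, of C57BL/6J mice. Sed BAT and Exe BAT had 3 libraries each, and Sed plasma and Exe plasma had 2 each. Exe is read here as exercised and Sed as not exercised, from a series that compares vesicles before and after exercise, although the labels give sessions of 90 min, 2 a day over 4 weeks, on the Sed samples too. Neither the kind of exercise nor the age or sex of the mice is given in the labels used here. No label says that replicates came from separate mice, so p-values set group differences against the scatter of these libraries, and that scatter may be technical.

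The 3 miRNAs are cut from hairpins of 1 shared primary transcript, so that their levels are often read together. The cluster is best known from sensory cells of the eye and inner ear, where changes in the seed of miR-96 cause hearing loss, and it is also expressed in epithelia and activated lymphocytes. All 3 are known to repress the transcription factor FOXO1, and miR-182 has been tied to the formation of brown adipocytes. A mature miRNA finds its targets mainly through its seed, bases 2 to 8 from the 5′ end.

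The mature sequences, from RefSeq on GRCm38.p6, are shown with the seed in capitals because the seeds are alike but not the same:
miR-183-5p: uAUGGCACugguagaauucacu
miR-96-5p: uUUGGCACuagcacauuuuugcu
miR-182-5p: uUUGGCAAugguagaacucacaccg
Seeds of miR-96-5p and miR-182-5p differ at 1 base, those of miR-183-5p and miR-96-5p also at 1, and those of miR-183-5p and miR-182-5p at 2. Bases 2 to 7 are identical in miR-96-5p and miR-182-5p. Over the mature sequences with the seed included, the closest pair is miR-183-5p and miR-182-5p, which align without gaps at 4 mismatches. The count is 9 for miR-183-5p with miR-96-5p and 11 for miR-96-5p with miR-182-5p. Of the 605 listed miRNAs that matched a RefSeq mature sequence, none outside the cluster had the seed of a member. In RefSeq the seed of miR-96-5p is also that of miR-1271-5p, for which no value was analysed here.

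The hairpins lie on the minus strand of chromosome 6. In the direction of transcription Mir183 (chr6:30169668-30169737) comes first, Mir96 (chr6:30169446-30169551) follows after a gap of 116 bases, and Mir182 (chr6:30165918-30165992) after a further 3453 bases. The whole stretch spans 3820 bases. In GENCODE M21, also on GRCm38, no other gene overlaps it. The lincRNA Rncr4 begins 3156 bases away on the plus strand, and the nearest protein-coding genes are Ube2h upstream and Nrf1 downstream. None of the 3 is therefore an intronic miRNA of an annotated host gene.

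Libraries held 104064 to 172279 miRNA reads for BAT and 1209116 to 1798169 for plasma. The BAT label fits the levels of its markers: the summed reads of miR-378a-3p, miR-193b-3p, miR-365-3p and miR-455-3p, miRNAs abundant in brown fat, were 65248 to 297708 counts per 1000000 miRNA reads of a library (CPM) in BAT and 265 to 5000 in plasma libraries. The lowest BAT value was that of Sed replicate 2, and the other 5 libraries had 177620 or more. Red cell miRNAs (miR-451a, miR-144-3p and miR-486a-5p) summed to 34441 to 71349 CPM in BAT and 125019 to 699741 in plasma. Most of each sum was miR-451a, and the list was split between sources. Against the sum, miR-144-3p was higher in BAT, at 144 to 957 CPM against 0 to 16.1 in plasma. The cluster sum, the tests of the members, the ratios of miR-96-5p and the nearest profiles in BAT are therefore also given without Sed replicate 2.

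In BAT vesicles the cluster was of middle rank. Summed over the 3 miRNAs, Sed replicates 1, 2 and 3 stood at 898, 2691 and 1447 CPM, against 660, 699 and 453 for the Exe libraries. Every Exe library was below every Sed library. The means were 1678 ± 919 in Sed and 604 ± 132 in Exe (SD, n = 3 each), and the Sed mean was 1172 without replicate 2. These values are shares of the miRNA reads, so that fewer vesicles of 1 kind and less of the miRNA per vesicle cannot be told apart.

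**Figure D1:**
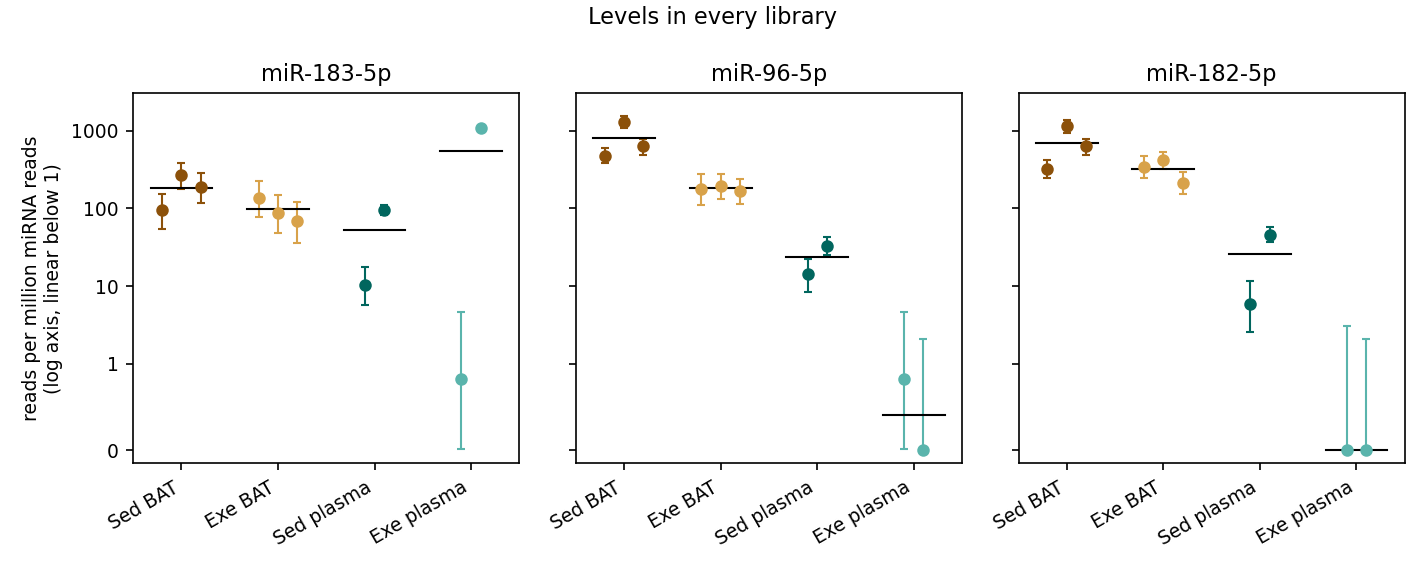
Counts per 1000000 miRNA reads (CPM, log axis, linear below 1) of the 3 miRNAs in each of the 10 libraries. Points are libraries in replicate order from left to right, vertical bars exact 95% counting intervals and horizontal lines group means. The Exe BAT libraries lie below all Sed BAT libraries for miR-96-5p, and miR-183-5p in Exe plasma is at 0.827 in replicate 1 and 1090 in replicate 2.

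In BAT vesicles, Exe was compared with Sed to ask how exercise changes the cluster there. The hairpin product that lies in the middle, miR-96-5p, changed most. Sed replicates 1 to 3 held 81, 134 and 73 of its reads, and the Exe libraries 21, 31 and 29. In CPM this was 478, 1288 and 629 in Sed against 180, 195 and 168 in Exe, so the groups did not overlap and the Exe libraries lay close together. Groups that do not overlap, with Exe lower, were found for 23.6% of the tested miRNAs on this scale. Among the miRNAs of a library it ranked between 67 and 91 in Sed and between 141 and 149 in Exe, counted from the most abundant. The means were 798 ± 430 and 181 ± 13.5 (SD, n = 3 each).

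The fall of miR-96-5p was a log2 fold change of -1.94 ± 0.30 (SE), with an adjusted p of 0.00471 in edgeR's quasi-likelihood test. That test scales the libraries by TMM, a trimmed mean of the ratios between libraries, and p-values are adjusted by Benjamini-Hochberg over all 199 tested miRNAs. By p it was number 3 of the 199. Of all tested miRNAs 13.1% were called lower and 22.6% were called in either direction at an adjusted p under 0.05. Without Sed replicate 2, the library with the highest CPM of miR-96-5p, the value was -1.56 (adjusted p = 0.000403, edgeR).

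The product of the last hairpin of the transcript, miR-182-5p, had read counts of 55, 118 and 73 in Sed against 40, 66 and 37 in Exe. In CPM these are 325, 1134 and 629 in Sed and 343, 416 and 215 in Exe. Sed replicate 1 lay below Exe replicates 1 and 2, so the groups overlapped. The log2 fold change was -0.91 ± 0.37 (SE, edgeR adjusted p = 0.101) and did not pass. It passed without Sed replicate 1, at -1.20 (edgeR adjusted p = 0.0309), and was -0.52 without Sed replicate 2.

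The least abundant member in BAT was miR-183-5p, from the first hairpin, with counts of 16, 28 and 22 in Sed against 16, 14 and 12 in Exe. In CPM these are 94.5, 269 and 190 in Sed and 137, 88.2 and 69.7 in Exe, again with overlapping groups. Its log2 fold change of -0.75 ± 0.39 (SE, edgeR adjusted p = 0.182) did not pass, and it was -0.49 without Sed replicate 2. At this depth a single library's count of miR-183-5p is known only broadly: 16 reads in Exe replicate 1 gave an exact 95% counting interval of 78.4 to 223 CPM.

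All 3 members passed the filter on low counts in BAT, 1 of 3 was called lower and none was called higher. The median over all 199 tested miRNAs was -0.06. With the authors' RPM, which divides each count by 1 total per library that is far larger than the miRNA reads, the same picture held for overlap. Values of miR-96-5p were 3.97, 6.33 and 3.55 RPM in Sed and 1.11, 1.6 and 1.52 in Exe, without overlap. Those of miR-182-5p (2.69, 5.58 and 3.55 against 2.11, 3.40 and 1.94) and of miR-183-5p (0.784, 1.32 and 1.07 against 0.845, 0.721 and 0.630) overlapped. In RPM 10.1% of the tested miRNAs had non-overlapping groups with Exe lower.

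**Figure D2:**
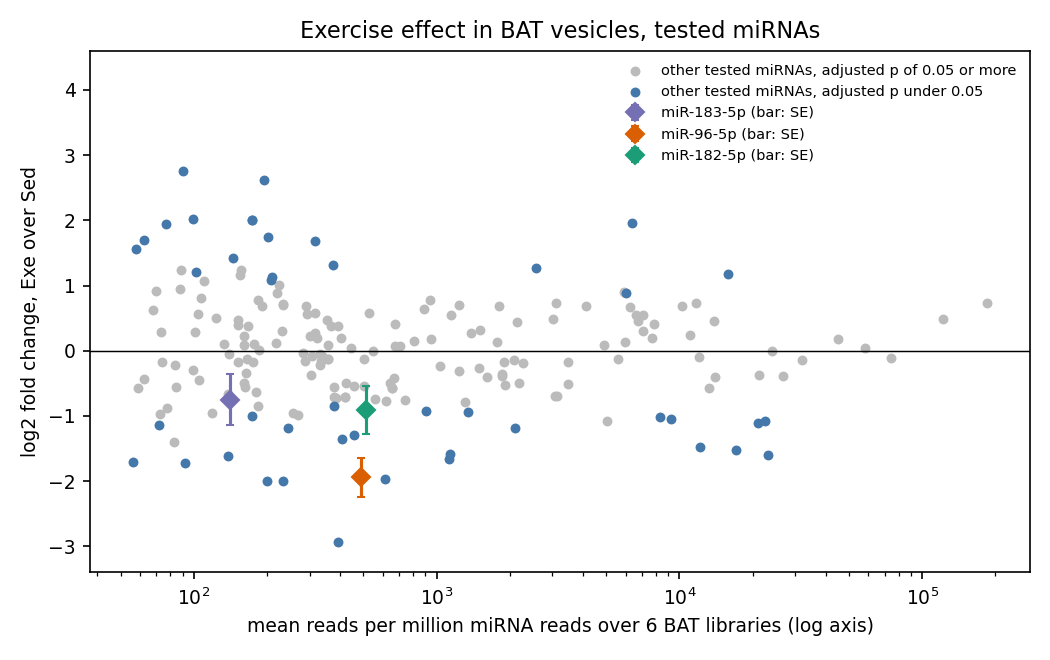
Log2 fold change of Exe over Sed in BAT vesicles (edgeR, TMM scale) against the mean CPM (log axis) of the 199 tested miRNAs. Diamonds are the cluster members with their SE, and miR-96-5p at -1.94 lies below miR-182-5p at -0.91 and miR-183-5p at -0.75.

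Ratios between members within a library do not depend on how libraries are scaled. They were chosen for description after the counts were seen, and no test is given for them. For miR-96-5p over miR-182-5p the ratio of reads was 1.47, 1.14 and 1.0 in Sed and 0.525, 0.470 and 0.784 in Exe. All 3 Sed libraries had at least as many reads of miR-96-5p as of miR-182-5p, and all 3 Exe libraries had fewer. The mean log2 ratio was 0.25 ± 0.28 in Sed and -0.79 ± 0.39 in Exe (SD, n = 3 each), a difference of -1.04 ± 0.28 (SE), or 2.05-fold. Without Sed replicate 2 the difference was -1.07.

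For miR-96-5p over miR-183-5p, its neighbour across the gap of 116 bases, the ratio was 5.06, 4.79 and 3.32 in Sed and 1.31, 2.21 and 2.42 in Exe. These groups did not overlap either, and the mean log2 ratio differed by -1.17 ± 0.33 (SE), or 2.25-fold, and by -1.10 without Sed replicate 2. In contrast, miR-182-5p over miR-183-5p was 3.44, 4.21 and 3.32 in Sed and 2.50, 4.71 and 3.08 in Exe. Here the groups overlapped, and the difference of -0.13 ± 0.29 (SE) was within its error. It was 0.068 without Exe replicate 1.

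As a background, the same ratio was formed for each of the 196 tested miRNAs with a read in every BAT library. Non-overlapping groups with Exe lower were found for 3.06% of them over miR-182-5p and for 3.06% over miR-183-5p, which is 6 miRNAs each time with miR-96-5p among them. Beside miR-96-5p, both sets held miR-136-5p of the imprinted Dlk1-Dio3 cluster, miR-1949, miR-1b-5p and miR-1291. For a ratio to miR-182-5p the difference was deeper than that of miR-96-5p for miR-136-5p (-2.08) and miR-1949 (-1.27). For a ratio to miR-183-5p it was deeper than that of miR-96-5p (-1.17) for miR-136-5p (-2.22), miR-1949 (-1.40) and miR-379-5p (-1.28).

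**Figure D3:**
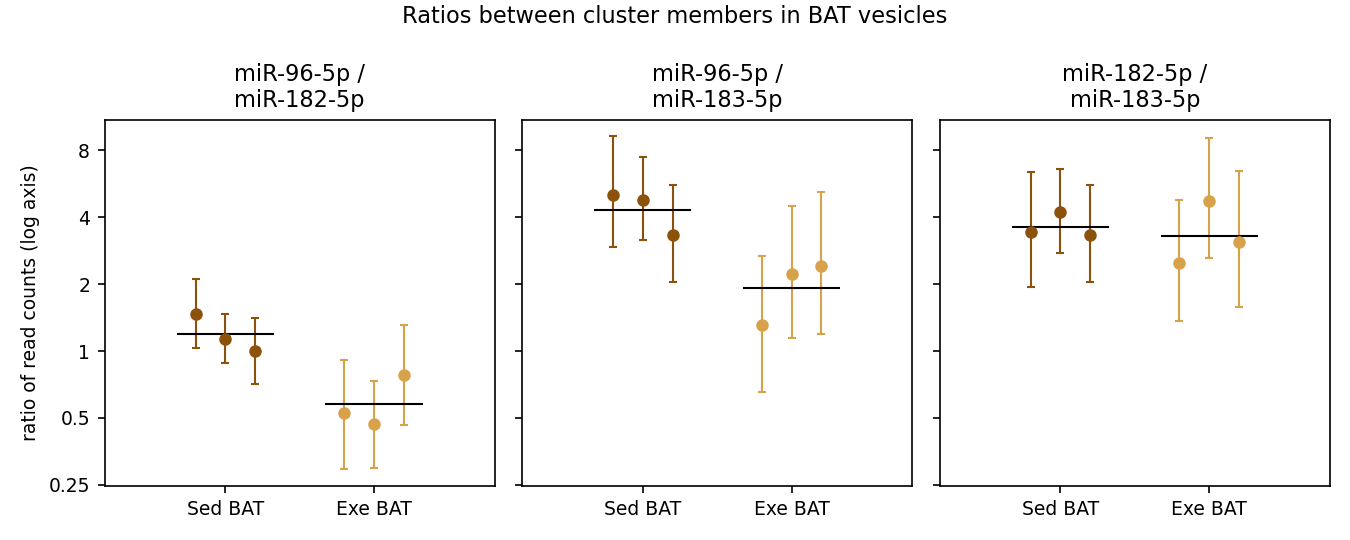
Ratio of read counts (log axis) between pairs of cluster members in the 3 Sed and 3 Exe BAT libraries, with exact 95% counting intervals and the geometric mean of each group as a line. Both ratios of miR-96-5p are lower in every Exe library than in any Sed library, while miR-182-5p over miR-183-5p overlaps.

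Within the cluster, miR-96-5p made up 53.3%, 47.9% and 43.5% of the Sed reads, against 27.3%, 27.9% and 37.2% of those in Exe. The share of miR-182-5p was 36.2%, 42.1% and 43.5% in Sed and 51.9%, 59.5% and 47.4% in Exe, and that of miR-183-5p 10.5%, 10% and 13.1% against 20.8%, 12.6% and 15.4%. The counting error of a single share is wide: the 37.2% of Exe replicate 3 had an exact 95% interval of 26.5 to 48.9. It includes the Sed values of replicates 2 and 3. Passenger arms were nearly absent. Only miR-182-3p is listed, with 1 read in Sed BAT replicate 2 and 0 in the other 9 libraries. There the exact 95% upper limit of a count of 0 was at most 31.8 CPM (Sed BAT replicate 3). No value of miR-183-3p or miR-96-3p was analysed here.

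The miRNAs nearest to each member across the 6 BAT libraries were found by the root-mean-square distance between centred log2 CPM profiles on the TMM scale, over the 197 miRNAs whose mean count was 10 or more. Nearest to miR-182-5p were miR-208b-3p, a miRNA of slow muscle (0.23), miR-365-3p, which is expressed in brown fat (0.27), and miR-183-5p (0.29). Nearest to miR-183-5p were miR-486a-3p of red cells (0.23), miR-208b-3p (0.26) and miR-182-5p (0.29). For miR-96-5p they were the muscle miRNA miR-1b-5p (0.22), miR-1291 (0.27) and miR-1a-3p of muscle (0.28). All 3 were called lower in Exe by the same test (background 13.1%), which follows in part from their choice by profile over the same libraries. Other muscle miRNAs, looked up after these values were seen, were not called: miR-133a-3p was at 0.46, miR-133b-3p at 0.71, miR-206-3p at 0.19 and miR-499-5p at -0.42. Its own cluster partners were at places 21 (miR-182-5p, 0.56) and 32 (miR-183-5p, 0.66), against a median distance of 1.04 from miR-96-5p to all others. Without Sed replicate 2 these places were 46 and 52, and the nearest to miR-96-5p were miR-32-5p (0.13), miR-1b-5p (0.15) and miR-1291 (0.25). In those 5 libraries the nearest to miR-182-5p was miR-652-3p (0.13) and the nearest to miR-183-5p was miR-135b-5p (0.19), and each of these members was at place 4 from the other.

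Markers of other cells were set beside these values. Summed epithelial miRNAs (the miR-200 family members, miR-203-3p and miR-205-5p) were at 663 to 1105 CPM in Sed BAT and 720 to 1108 in Exe BAT. Of the 7 in this list 1 was tested in BAT, miR-203-3p, at 0.41 ± 0.29 (SE, edgeR adjusted p = 0.323), not called. Neural miRNAs summed to 482 to 797 CPM in Sed BAT and 598 to 708 in Exe BAT, with 2 of 4 tested and none called, and leukocyte miRNAs to 6803 to 8860 and 7552 to 11228, with 1 of 4 called lower (background 13.1%) and none higher. The sums of these 3 lists overlapped between groups. Most reads of each epithelial sum were miR-203-3p, with 55 to 162 reads a library. Of the untested epithelial members, miR-200a-3p did not overlap: 76.8, 48.0 and 77.5 CPM in Sed against 34.3, 37.8 and 46.4 in Exe. It had 4 to 13 reads a library, and the other untested epithelial members overlapped between groups. The brown fat list had its highest sums in Exe, with 65248 to 228197 CPM in Sed and 228745 to 297708 in Exe. Sed replicate 2 had the lowest, and replicate 1 had 177620. Most reads of each sum were miR-378a-3p, which was not called (0.73, edgeR adjusted p = 0.414). Called higher were 2 of the 4 members (background 9.55%), miR-193b-3p (1.17) and miR-455-3p (1.57, with 2 to 17 reads a library). None was called lower, and miR-365-3p was at -1.08 (edgeR adjusted p = 0.0547). The part of the brown fat list and of the other lists in the fall of miR-96-5p was not tested.

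The second comparison asked the same of plasma vesicles. There miR-96-5p and miR-182-5p were low in Sed and nearly absent in Exe, while miR-183-5p was at opposite extremes in the 2 Exe libraries. The counts of miR-96-5p were 19 and 59 in Sed, against 1 and 0 in Exe. Sed replicate 1 had 8 reads of miR-182-5p and replicate 2 had 83, while both Exe libraries were at 0. In CPM, miR-96-5p was at 14.2 and 32.8 and miR-182-5p at 5.96 and 46.2 in Sed, and a count of 0 allows up to 2.48 CPM in Exe replicate 1 and 1.70 in replicate 2.

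For miR-96-5p the log2 fold change was -6.29 ± 2.02 (SE, n = 2 per group, edgeR adjusted p = 0.0967) and did not pass. With 1 read in Exe the ratio of Sed to Exe was 109 on the TMM scale (exact 95% counting interval 19.0 to 4352). For miR-182-5p, which missed the filter on low counts and so was not among the 182 tested, the level in Exe was at least 42.3-fold lower, with 3 counts in the 2 Exe libraries together as the floor, on the TMM scale. This bound and the counting intervals cover counting error only, since copies made in PCR are not independent molecules. In plasma edgeR called 0.0% of the tested miRNAs. Unadjusted p-values under 0.05 numbered 60, and DESeq2 made 59 calls.

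Markers of other cells were set beside the plasma values too. Red cell miRNAs summed to 699741 and 527755 CPM in Sed against 125019 and 139882 in Exe. Most of each sum was miR-451a (698077 and 527675 CPM against 110944 and 131414). The list did not move together: miR-486a-5p was higher in Exe (1664 and 64.0 CPM against 14068 and 8467), and miR-144-3p overlapped (0 and 29 reads against 8 and 2). Leukocyte miRNAs were at 2112 and 1559 CPM in Sed and 22529 and 19476 in Exe, and neural miRNAs at 162 and 757 against 2099 and 2096. In the neural list only miR-128-3p was higher in both Exe libraries than in Sed (11 and 251 reads against 2526 and 3330). In contrast, miR-9-5p had 104 and 505 reads against 2 and 2, and miR-218-5p overlapped (57 and 188 against 10 and 370). The red cell, leukocyte and neural sums did not overlap between groups, while the epithelial sum did (1314 and 1208 against 645 and 2057). With 2 libraries a group, and no background share of non-overlap for plasma, this is a description only. Single epithelial and neural miRNAs were, like miR-96-5p and miR-182-5p, at or near 0 in Exe. Epithelial miR-205-5p had 228 and 284 reads in Sed and 0 in both Exe libraries, and miR-203-3p had 97 and 268 against 0 and 2. Neural miR-124-3p had 46 and 417 against 0 in both. Others of these lists were not: miR-429-3p had 696 and 331 reads against 747 and 3078, and miR-200b-3p 25 and 36 against 5 and 538. In edgeR 4 of the 6 tested epithelial and 2 of the 4 tested neural members were below 0. Of the tested members, 6 of 7 epithelial, 4 of 4 neural, 3 of 3 red cell and 2 of 4 leukocyte, none was called by edgeR. The part of these cells in the plasma values was not tested.

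For miR-183-5p the counts were 14 and 173 in Sed against 1 and 1925 in Exe. The Exe libraries stood at 0.827 and 1090 CPM, below and above both Sed libraries at 10.4 and 96.2. Its log2 fold change of 3.17 ± 2.92 (SE, edgeR adjusted p = 0.493) rested on replicate 2 of Exe: without that library it was -5.88 (edgeR adjusted p = 0.273), with the spread of the lone library taken from the other group. No direction is given for it.

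In Exe plasma replicate 2, miR-183-5p thus made up all 1925 reads of the cluster, and a count of 0 for the other members has an exact 95% upper limit of 0.191% of them. In Sed plasma its share was 34.1% (exact 95% interval 20.1 to 50.6) in replicate 1 and 54.9% (49.2 to 60.5) in replicate 2. All 6 BAT libraries lay at 20.8% or less. A high count in 1 library of a pair was not limited to miR-183-5p. In Exe plasma 20 miRNAs had at least 100 reads in replicate 2 and at most 3 in replicate 1, and 37 the reverse, while in Sed plasma 11 had so in replicate 2 alone and 4 in replicate 1 alone.

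**Figure D4:**
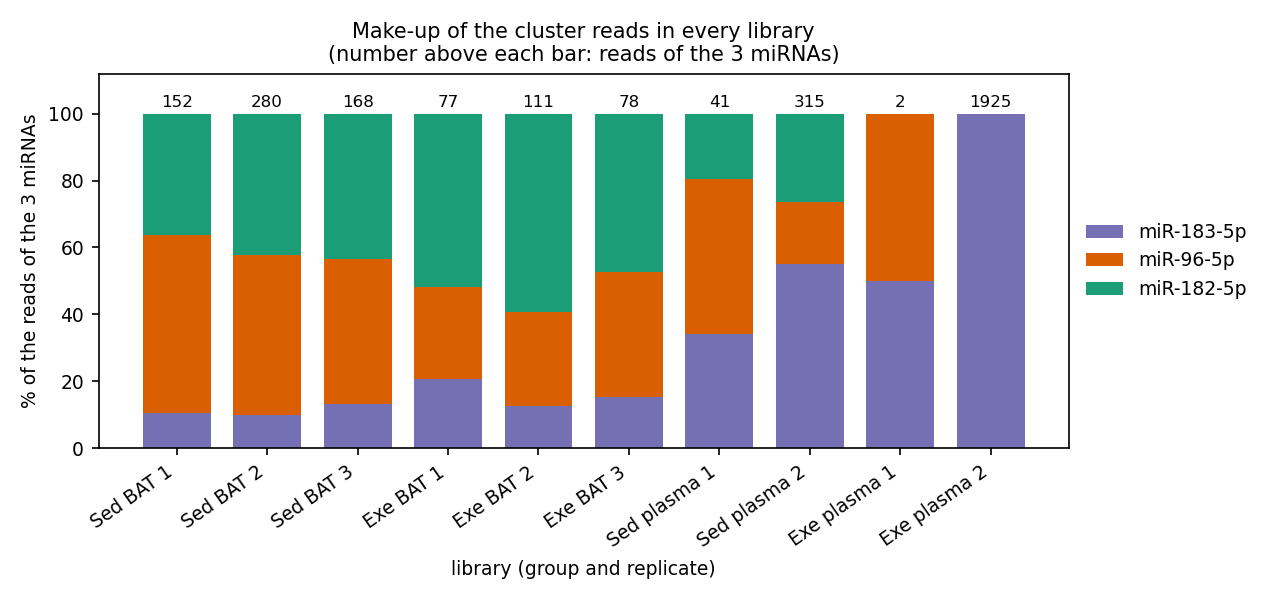
Share of each member in the reads of the 3 miRNAs (stacked to 100%) in each of the 10 libraries, with the number of those reads above the bar. The share of miR-96-5p is 43.5% to 53.3% in Sed BAT and 27.3% to 37.2% in Exe BAT, and Exe plasma replicate 2 holds miR-183-5p alone.

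Each read count of the plasma table is paired with another whole number that does not exceed it. How that number was made is not given in the sources used here. For miR-183-5p it was 1898 beside 1925 reads in Exe replicate 2, or 98.6% of the reads, and 4 beside 14 and 33 beside 173 in Sed, or 28.6% and 19.1%. For miR-96-5p it was 3 beside 19 and 10 beside 59 in Sed, and for miR-182-5p 1 beside 8 and 11 beside 83. Among miRNAs with at least 100 reads the median of this percentage was 75.2 and 11.4 in Sed replicates 1 and 2 and 97.9 and 98.5 in Exe. The groups therefore differ in this number over the whole table, and its part in the plasma values was not tested.

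Levels were then compared between BAT and plasma vesicles in a joint fit of the 4 groups over the miRNAs listed in both tables. In that fit the source cannot be told apart from the table or from a batch of sequencing. The order of mean CPM for miR-96-5p was Sed BAT, Exe BAT, Sed plasma, Exe plasma (798, 181, 23.5 and 0.414), with no overlap between neighbours on this scale of library size alone. On the TMM scale of the joint fit the order held, but Exe BAT (108 to 110 CPM) and Sed plasma (45.4 and 115) overlapped. For miR-182-5p the order was the same (696, 324, 26.1 and 0), and with library size alone only Sed BAT and Exe BAT overlapped. On the TMM scale Exe BAT (137 to 233 CPM) also overlapped with Sed plasma (19.1 and 162). No share of non-overlap over all miRNAs was formed between sources or within plasma, so these orders are a description only. The level of miR-183-5p was 184 ± 87.4 in Sed BAT and 98.4 ± 34.9 in Exe BAT (CPM, SD, n = 3 each), and it overlapped between all neighbours in order on both scales.

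In Sed libraries miR-96-5p was at 2.39 ± 0.98 (log2 of BAT over plasma, SE, edgeR adjusted p = 0.0751) and miR-182-5p at 2.01 ± 1.06 (adjusted p = 0.162), and neither passed. The median of all 234 tested miRNAs was itself 1.21, of which 22.2% were called higher and 20.1% lower in BAT. With library size alone that median was 3.84, and both miRNAs passed, at 5.08 and 4.73. The value of miR-96-5p also passed without Exe BAT replicate 3 (3.04), Sed plasma replicate 2 (3.40), Exe plasma replicate 1 (2.41) or Exe plasma replicate 2 (2.55), and that of miR-182-5p without Sed plasma replicate 2 (4.44). For miR-183-5p it was -0.92 ± 1.61 (adjusted p = 0.658), and 1.79 with library size alone, so no direction is given.

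In Exe libraries both miR-96-5p (edgeR adjusted p = 0.00155) and miR-182-5p (adjusted p = 0.00128) were called higher in BAT, where 41.0% of all tested miRNAs were called higher and 25.6% lower. On the TMM scale of the joint fit miR-96-5p was 205-fold higher (exact 95% counting interval 35.8 to 8207), from 81 reads in BAT against 1 in plasma. By the same scale miR-182-5p was at least 121-fold higher, from 143 reads against 0, with the floor set as above. With library size alone these were 538-fold (93.9 to 21522) and at least 317-fold, and the single plasma read of miR-96-5p is below the floor of 3 counts. These 2 calls held under each of the 18 alternatives run for them. By contrast miR-183-5p was at -3.75 ± 1.70 (adjusted p = 0.0720) and was called lower in BAT without Exe plasma replicate 1 (-4.71, adjusted p = 0.00362) and higher without Exe plasma replicate 2 (5.38, adjusted p = 0.0214). Each of these fits has 1 Exe plasma library, which is assumed to vary like the other groups.

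The epithelial list, set beside these values as the cluster is also epithelial, had 3 of its 5 tested members called lower in BAT in Sed libraries and none higher on the TMM scale (background 20.1% lower and 22.2% higher), with a median of -5.17. Among them miR-200c-3p was at -6.50 ± 0.92 and miR-429-3p at -5.77 ± 0.95 (SE). With library size alone miR-200c-3p (-3.89) and miR-429-3p (-3.23) were still called lower, miR-205-5p was at -2.55 (edgeR adjusted p = 0.0883), miR-200a-3p at 1.59 (adjusted p = 0.143) and miR-203-3p was called higher at 2.49 (adjusted p = 0.0371), against a background of 5.98% lower and 59.0% higher.

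Across all 10 libraries, over 182 miRNAs listed in both tables, miR-96-5p and miR-182-5p were each other's nearest profile (0.62). After each other the nearest to miR-96-5p were miR-340-5p (0.83) and miR-29b-3p (0.83), and to miR-182-5p miR-24-2-5p (0.64) and miR-29c-3p (0.73). Neither was near miR-183-5p, which was at 3.08 from miR-96-5p and 3.11 from miR-182-5p, above its median distance of 2.87 to all others. Nearest to miR-183-5p were miR-218-5p (1.35), miR-148a-3p (1.5) and miR-186-5p (1.54).

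The difference between the exercise effects in BAT and plasma was tested directly in the joint fit. It was called for miR-182-5p (edgeR adjusted p = 0.0120) and for miR-96-5p (4.53 ± 1.41, SE, adjusted p = 0.0368), in both with the plasma value further below 0, where 16.7% of all tested miRNAs were called in that direction. With a spread for each source in limma-voom, an alternative chosen after seeing the data, neither passed (adjusted p = 0.135 and 0.173). For miR-96-5p the call was also lost in 7 of the 10 fits that leave out 1 library, namely each BAT library in turn and Sed plasma replicate 2, and with 3 further settings. For miR-183-5p the difference was -2.83 ± 2.36 (adjusted p = 0.356), but without Exe plasma replicate 1 it was called at -3.82 (adjusted p = 0.0488) and without Exe plasma replicate 2 at 6.04 (adjusted p = 0.0365), again with a lone Exe plasma library and the spread of the other groups.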

How the data were processed

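Small RNA from vesicles was counted in 10 libraries of 4 groups. Per the file headers, the authors deposited read counts of mature miRNAs for each library, in 1 table for BAT and 1 for plasma. The BAT table as deposited also holds RPM values by the authors: each is the count over a total fixed for its library (tolerance 0.01), and those totals are 18.9 to 21.2 in units of 1000000 reads. The submitters' processing notes name Bowtie 0.12.2, mm8 and mm9 without saying what each was used for. How reads were counted, with which mismatches, and how similar miRNAs were handled is not given in the sources used here.

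Counts were analysed with R 4.3.3, edgeR 4.0.16 (filterByExpr, TMM, robust quasi-likelihood, Benjamini-Hochberg, threshold 0.05), limma 3.58.1 and DESeq2 1.42.0, and tested on simulated data. The SE of a log2 fold change is its size over the square root of F. Counting intervals are exact (Clopper-Pearson), and floors are 3 counts. Python 3.11.15 and scipy 1.17.1 gave the descriptions. Named miRNAs are the members, listed arms of the same hairpins, miRNAs sharing a member's seed, the 3 nearest profiles per member and members of fixed lists (brown fat, red cell, epithelial, neural, leukocyte). Members and lists were chosen with earlier results of these data known. Alternatives were other scalings, filters and tools, a replicate block, a joint fit and leaving out each library. No replicates were duplicates of each other.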

Additional observations from a re-analysis of the deposited data

Results flagged for a closer look

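The exercise effect differed between BAT and plasma vesicles by a test of the difference itself for miR-96-5p (edgeR quasi-likelihood adjusted p = 0.0368) and for miR-182-5p (edgeR quasi-likelihood adjusted p = 0.0120). The call was lost in 11 of 18 alternatives for miR-96-5p and in 1 of 18 for miR-182-5p, and neither passed in limma-voom with separate spreads for BAT and plasma. In BAT the Exe libraries held 21 to 31 reads of miR-96-5p and 37 to 66 of miR-182-5p, and in plasma 1 read and 0 reads over both Exe libraries. The plasma effects rest on 78 reads of miR-96-5p and 91 of miR-182-5p in Sed, most of them from replicate 2.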

How the results depend on the processing

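In BAT vesicles the values of all 3 members stayed below 0 under every alternative in which they were fitted. The fall of miR-96-5p kept its call in 16 of 17 alternatives, replicate block and library totals implied by RPM included, and lost it in the joint fit of the 4 groups (-1.95). With 1 library left out the ranges were -2.13 to -1.56 for miR-96-5p and -1.20 to -0.52 for miR-182-5p. Whether the replicate numbers pair libraries is not known. Deviations from the group mean had correlations of -0.12 to 0.0042 between BAT libraries of the same number. The replicate block gave 25 calls among all tested miRNAs instead of 45. A mean of at least 50 counts gave 21 (107 tested, miR-183-5p not among them), the joint fit 0, and leaving out 1 library 16 to 56. The log2 ratio of miR-182-5p to miR-183-5p ranged from -0.39 to 0.068 with 1 library left out.

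In plasma the count of 0 calls became 17 with no filter, 59 with DESeq2, 4 with upper-quartile factors, 10 with library size alone, 29 with a mean of at least 50 counts, 40 with limma-voom, 1 without the 3 most abundant miRNAs, 7 with the replicate block, 108 in the joint fit, and 3 to 27 with 1 library left out. There miR-96-5p passed in the joint fit (-6.48), and miR-183-5p was at -0.45 with limma-voom, -0.37 with the replicate block and -5.88 to 5.005 with 1 library left out. With 2 libraries a group the deviations mirror each other, so the plasma correlations (-0.08) are 1 value and cannot show whether libraries were paired.

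For BAT against plasma in Sed, miR-96-5p passed with DESeq2 (2.88), upper-quartile factors (2.57), library size alone (5.08), RLE factors (2.89) and without the 3 most abundant miRNAs (2.52), and ranged from 1.91 to 3.40 with 1 library left out. For miR-182-5p the values that passed were 2.70 with DESeq2, 4.73 with library size alone and 2.71 with RLE factors (range 1.22 to 4.44). For miR-183-5p it was 1.79 with library size alone and 0.19 with a mean of at least 50 counts (range -1.73 to 1.74). Calls numbered 150 with DESeq2, 152 with library size alone and 77 to 149 with 1 library left out, against 99. In Exe they were 82 under the filter at a mean of 50 counts and 131 to 205 with 1 library left out, against 156, and miR-183-5p ranged from -4.71 to 5.38.

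For the difference of exercise effects miR-96-5p did not pass with no filter (4.31), library size alone (3.32), limma-voom (4.43) or limma-voom fitted with separate spreads for BAT and plasma (4.43), with a range of 3.65 to 6.06. With that last setting miR-182-5p was at 5.90 and 25 miRNAs were called against 68 (36 to 119 with 1 library left out), and miR-183-5p ranged from -5.35 to 6.04. The cause of these shifts was not tested. Counts of 12 to 28 reads limit miR-183-5p in BAT, and 2 libraries a group limit plasma.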
